A study of Homo sapiens with 12 samples.

Results

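The 42 collagen chain genes on the Agilent whole human genome oligo microarray were examined in Rh30 cells, an established alveolar rhabdomyosarcoma (ARMS) line that carries the PAX3-FKHR fusion gene. They were chosen by name alone, as every gene probe whose gene name reads COL, a number, A and a number, which gave 42 of 30238 named genes and 68 of 41000 gene probes. Each gene was represented by its brightest probe, so no value of any comparison entered the choice. COL26A1 and COL28A1, in a current gene table, were not on the array under such a name, and the gene the array calls COL29A1 is now COL6A5.

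The study asked which genes respond to the level of PAX3-FKHR in ARMS cells, and 3 cultures were compared. KD1 is 1 stable Rh30 clone with a retroviral vector that expresses an siRNA against the fusion junction. CON is 1 stable clone with a non-targeting siRNA in the same vector, and puromycin (1 μg/mL) was kept on KD1 and CON alike. WT is the parental Rh30 population, with neither vector nor puromycin. Cells of all cultures were plated in equal number in DMEM with 10% serum and harvested after 24 h, and 500 ng of RNA was labeled. Each of KD1 vs CON, KD1 vs WT and WT vs CON was hybridized for 2 biological replicates as a dye-swap pair, which makes 12 arrays from 6 RNA extracts. Each culture was therefore read 8 times, 4 times per extract. The 3 comparisons share these extracts, so their values below are set side by side and are not independent of each other. With 1 clone for each vector, the vector insert, the selection and the clone cannot be told apart. P-values rest on the spread between 2 cultures of each, pooled for a probe over the 3 comparisons and moderated across probes. Spread of the WT cultures therefore also enters the test of KD1 vs CON.

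Collagens are secreted proteins of 3 chains wound into a triple helix, and each chain repeats a glycine at regular steps, because no other residue is small enough for the core of the helix. Fibrillar collagens assemble into the fibrils of tendon, bone, cartilage and muscle connective tissue. Type IV collagen forms the network of basement membranes, which surrounds every muscle fiber. The remaining types decorate fibrils, form beaded filaments beside the muscle fiber, anchor basement membranes or span the cell membrane. The chains are hydroxylated and folded in the endoplasmic reticulum, trimmed outside the cell and cross-linked by lysyl oxidases, and cells bind them through integrins and discoidin receptors.

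The repeat can be read in the array's own probes. Among all 41000 probes, 3 carry a glycine codon (GGN) at every ninth base through their whole length of 60 bases, and all 3 belong to collagen genes. They are shown because they report coding sequence of the helix itself, with the glycine codons in capitals, and with positions on build NCBI36.
COL4A5, brightest probe, chrX:107756144-107756203, plus strand: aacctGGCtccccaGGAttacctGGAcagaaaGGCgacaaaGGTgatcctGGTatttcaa
COL4A1, second probe, chr13:109624341-109624847, minus strand: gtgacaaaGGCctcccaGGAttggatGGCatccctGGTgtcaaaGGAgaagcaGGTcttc
COL3A1, second probe, chr2:189577321-189578365, plus strand: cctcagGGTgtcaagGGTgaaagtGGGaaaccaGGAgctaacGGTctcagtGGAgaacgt
The last 2 probes span more of the genome than their own length and so lie across introns. The type IV genes also sit in head-to-head pairs that start back to back. The 126 bases between the RefSeq starts of COL4A1 and COL4A2 are shown because these 2 genes are described as a pair below. They lie at chr13:110307158-110307283 on GRCh38.p14, read on the plus strand towards COL4A2, with 1 CCAAT and 1 GGGCGG in capitals.
COL4A1 to COL4A2: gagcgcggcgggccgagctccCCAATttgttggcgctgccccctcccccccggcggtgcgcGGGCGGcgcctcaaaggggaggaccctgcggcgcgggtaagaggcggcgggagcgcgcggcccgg
Of 35116 promoter entries in the RefSeq-derived table, 21.1% hold CCAAT and 34.6% hold GGGCGG on either strand in the same number of bases before the start. The stretch is 80.2% G and C, and neither ATTA, the core of homeodomain sites, nor the E-box CANNTG was found in it on either strand. ATTA occurs in 29.0% and CANNTG in 38.8% of windows of that length. The starts of COL4A4 and COL4A3 lie 418 bases apart, and those of COL4A6 and COL4A5 lie 379 bases apart. For 30 of the 42 collagen genes the table holds 42 promoter entries. In the 250 bases before the start, 11 of these hold CCAAT (26.2%, against 32.0% of all entries), 24 hold GGGCGG (57.1% against 42.6%), 14 hold ATTA (33.3% against 47.4%) and 22 hold CANNTG (52.4% against 61.8%). These matches are descriptions of letters, not of binding sites.

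Some facts of the whole series bear on the collagen values. Between 71.1% and 73.6% of spots were well above background in Cy3 and between 64.4% and 67.8% in Cy5. Of 8 rhabdomyosarcoma markers, 7 were well above background in every reading of every culture (TFAP2B in none). MYOG, a muscle differentiation factor, was lower in WT than in CON (log2 ratios -1.96 and -1.49, adjusted p = 0.0183, and 0.0475 in a stricter fit described below), and no other gene of this list or of the fibroblast, epithelial, endothelial and blood cell marker lists passed in any comparison. Of 6 fibroblast markers, THY1 was well above background throughout and PDGFRA, FAP and LUM nowhere. Their summed log2 level ranged from 12.1 to 12.2 in KD1, 11.9 to 12.9 in CON and 12.4 to 13.2 in WT. WT replicate 2 stood apart in 3 of 5 epithelial markers. In WT vs CON, the log2 ratio of EPCAM was 0.24 in replicate 1 and 5.43 in replicate 2, that of KRT19 was 0.01 and 3.0, and that of CDH1 was 0.10 and 2.21. KRT18 was 0.95 and 0.91, so it was as high in replicate 1, and KRT8 was 0.02 and 0.26. The summed log2 level of 5 epithelial markers was 10.6 to 10.9 in KD1, 10.7 to 10.9 in CON and 11.2 to 11.8 in WT. Ratios against WT are therefore given by replicate where a collagen is called or a list is summarised, and collagen calls also with each culture left out. The part of those genes in the WT values was not tested. Of 5 endothelial and blood cell markers, PECAM1, VWF and CD14 were well above background throughout and PTPRC nowhere, and the summed log2 level ranged from 9.91 to 10.9 in KD1, was 10.3 in CON and ranged from 9.69 to 9.90 in WT. VWF stood apart in KD1 replicate 2, with log2 ratios of 1.01 and 2.97 against CON and 1.02 and 3.42 against WT. It did not pass the signal limit described below in KD1 vs CON. The other measured genes of this list had mean log2 ratios in KD1 of -0.27 and 0.14 against CON, and 0.26 and 0.29 against WT. For the targeted genes, the mean log2 ratio of PAX3 in KD1 was -0.42 against CON and -0.39 against WT, and that of FOXO1 (FKHR) was -0.42 and -0.60, with adjusted p between 0.272 and 0.432. Whether these probes lie in the fused part of each gene was not determined. The study measured the fusion itself by RT-PCR and Western blot and reported it lower in KD1 than in CON.

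Detection differed between the collagen genes. Of the 42 genes, 24 were well above background in all 24 readings, 7 in none and 11 in some. The share of all genes on the array detected in every reading was not counted. Among the 11 fibrillar genes, 8 were detected throughout, COL5A3 nowhere, and COL1A2 and COL2A1 in part. Among the 6 type IV genes, only COL4A1 and COL4A2 were detected throughout, COL4A3 and COL4A4 nowhere, and COL4A5 and COL4A6 in part. The other 25 genes had 14 detected throughout and 4 nowhere (COL6A6, COL8A1, COL22A1 and COL29A1). A gene counted as measured in a comparison if at least 1 channel exceeded the 99th percentile of the negative controls on each of its 4 arrays. This limit was passed by 20 collagen genes for KD1 against CON, 26 for KD1 against WT and 27 for WT against CON. It can admit a gene through the culture in which it is high, so the counts below describe measured genes and not the whole family.

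Collagen levels were on average highest in parental cells, but few single genes passed the test. In WT vs CON, 4 of 27 measured collagen genes were higher in WT and 0 were lower at an adjusted p under 0.05, where 1.42% of 26566 probes passed (0.802% higher and 0.617% lower). In KD1 vs WT, 1 of 26 was lower in KD1 and 0 were higher, where 1.09% of 24860 probes passed (0.8% lower and 0.294% higher). For KD1 vs CON, 0 of 20 passed with limma, where 1.81% of 21925 probes did (0.78% higher and 1.03% lower). At an unadjusted p under 0.05, 8 of these 20 collagen genes passed, as did 3775 of the 21925 probes.

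Mean differences of at least 2-fold were more common. WT exceeded CON by that much in 7 collagen genes and was below CON in 0, beside 2.48% and 2.1% of all probes. KD1 exceeded WT in 2 and was below WT in 7, beside 2.09% and 2.67%. KD1 exceeded CON in 2 and was below CON in 3, beside 1.91% and 2.08%. A stricter fit, in which the ratios were first reduced to the 6 RNA extracts, is given as the extract-level fit beside each call. It called 0.493% of probes between WT and CON, 0.447% between KD1 and WT and 0.734% between KD1 and CON, and of the collagens only COL2A1, between KD1 and WT.

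The family's median depended on the replicate. For WT vs CON, the median log2 ratio of the measured collagen genes was 0.34, with 0.76 in replicate 1 and 0.18 in replicate 2, beside -0.03 over all probes tested. Replicate 1 had 22 of 27 genes above 0 and replicate 2 had 15, against 44.8% and 49.8% of all probes. In KD1 vs WT, the median was -0.50, with -0.94 in replicate 1 and -0.08 in replicate 2, beside 0.01 over all probes. Here 21 of 26 genes lay below 0 in replicate 1 and 15 in replicate 2, against 45.6% and 53.1% of all probes. In KD1 vs CON, the median was 0.19, but it was -0.20 in replicate 1 and 0.21 in replicate 2, beside -0.01 over all probes, and 11 genes lay above and 9 below 0 (48% and 52% of all probes). The replicates of a gene disagreed in sign for 3 of 20 collagen genes between KD1 and CON, 10 of 26 between KD1 and WT and 9 of 27 between WT and CON (28.3%, 43.6% and 39.5% of all probes). The KD1 arrays were split over slides by replicate, so replicate and slide cannot be told apart there and the replicate values are also the values within a slide. All WT vs CON arrays shared 1 slide.

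**Figure D1:**
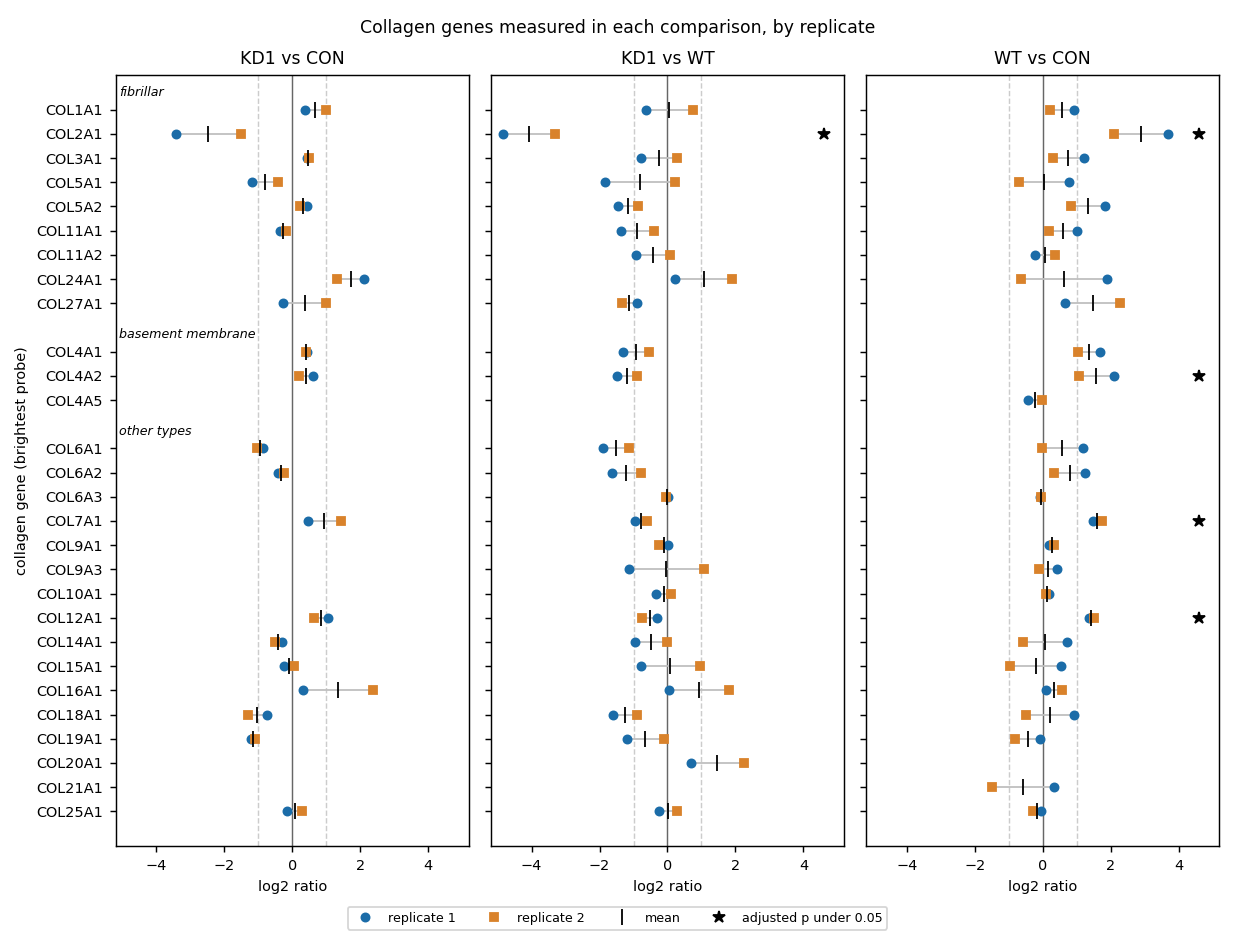
Log2 ratio of each collagen gene measured in KD1 vs CON, KD1 vs WT and WT vs CON, by type, with circles for replicate 1, squares for replicate 2, ticks for the mean and dashed lines at 2-fold. Stars mark an adjusted p under 0.05, which COL2A1 reached in KD1 vs WT and COL2A1, COL4A2, COL7A1 and COL12A1 reached in WT vs CON. In the extract-level fit, only COL2A1 in KD1 vs WT passed.

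Among the fibrillar genes, COL2A1 differed most. It encodes the chain of type II collagen, the main fibril of cartilage, and its probe lies at chr12:46653216-46653275. Its normalised log2 level, replicate 1 first, was 6.52 and 7.41 in CON, 4.22 and 6.09 in KD1, and 10.70 and 9.64 in WT. Both WT cultures lay far above all others, and both KD1 cultures below both CON cultures. In KD1 it was well above background in 6 of 8 readings, and in CON and WT in 8 of 8. The log2 ratio in KD1 vs WT was -4.84 and -3.30 (mean -4.07 ± 1.09, SD, n = 2), which is 16.8-fold lower in KD1 (limma, SE 0.49, adjusted p = 0.0152, and 0.0380 in the extract-level fit). All 4 arrays had this direction. The call was lost without WT replicate 1 (-4.49, adjusted p = 0.319) and without WT replicate 2 (-5.55, adjusted p = 0.152), fits in which 1 WT culture is left, and over all fits its log2 ratio ranged from -5.95 to -2.67 and its adjusted p from 0.00206 to 0.319. The smallest difference, -2.67, came from normexp correction and loess. Between WT and CON the ratios were 3.69 and 2.10 (2.89 ± 1.12), 7.43-fold higher in WT (adjusted p = 0.0420, and 0.113 in the extract-level fit), and 2.17 after normexp and loess. This call was lost without any 1 of the 4 CON and WT cultures, with log2 ratios from 2.68 to 3.74 and adjusted p from 0.218 to 0.404. In KD1 vs CON the ratios were -3.43 and -1.52 (-2.48 ± 1.35), 5.57-fold lower in KD1 with an adjusted p of 0.0541, which misses the threshold. This difference depended on the normalization, being -0.58 with each array centred on its median and -0.41 after normexp correction and loess.

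COL5A2, a chain of type V collagen that nucleates fibrils, had log2 levels of 11.79 and 11.92 in CON, 12.19 and 12.07 in KD1, and 13.61 and 12.86 in WT. Both WT cultures lay above the rest, and KD1 lay slightly above CON. The ratios of WT over CON were 1.83 and 0.84 (1.34 ± 0.70), 2.53-fold higher in WT with an adjusted p of 0.0640, and in KD1 vs WT they were -1.45 and -0.87 (-1.16 ± 0.41, adjusted p = 0.0971). Neither passed the test. COL27A1, a fibrillar chain of developing cartilage, measured 14.00 and 12.25 in CON, 13.75 and 13.29 in KD1, and 14.65 and 14.62 in WT. Its CON cultures lay apart from each other by more than CON and KD1 differed, and WT lay above both. The ratio in WT vs CON was 0.67 and 2.28 (1.47 ± 1.14, adjusted p = 0.114) and that in KD1 vs WT was -0.90 and -1.35 (-1.12 ± 0.32, adjusted p = 0.199).

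COL24A1, a fibrillar chain linked to bone, went the other way and was highest in KD1. Its log2 levels were 6.13 and 8.0 in CON, 8.23 and 9.44 in KD1, and 7.92 and 7.37 in WT. The KD1 cultures lay above all others, while CON and WT overlapped. The ratio in KD1 vs CON was 2.10 and 1.33 (1.72 ± 0.55), 3.29-fold with an adjusted p of 0.154 (0.88 after normexp and loess), and that in KD1 vs WT was 0.23 and 1.91 (1.07 ± 1.19, adjusted p = 0.346). COL1A2, which encodes the second chain of type I collagen, the main collagen of skin and bone, was well above background in 8 of 8 KD1 readings, 5 of 8 WT readings and 0 of 8 CON readings. Its levels were 2.51 and 2.05 in CON, 4.82 and 4.14 in KD1, and 3.54 and 3.07 in WT, with no overlap between cultures. KD1 was at least 2.46-fold above CON and WT at least 1.09-fold, taking the background limit of each array as the level of CON. The group means were 4.48 in KD1, 3.31 in WT and 2.28 in CON. It was not tested, because no comparison measured it on every array, and its second probe was well above background nowhere.

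The partner chain COL1A1 was detected in every reading, with log2 levels of 7.34 and 7.68 in CON, 7.71 and 8.91 in KD1, and 8.44 and 7.97 in WT, and KD1 and WT overlapped. Its adjusted p was between 0.323 and 0.955 in the 3 comparisons. COL3A1, the fibrillar collagen of distensible tissue, gave 0.44 and 0.51 for KD1 against CON, -0.78 and 0.27 for KD1 against WT, and 1.20 and 0.30 for WT against CON, where its adjusted p was 0.257. The helix probe of COL3A1 shown above gave means of 0.41, -0.29 and 0.60 beside 0.47, -0.25 and 0.75 from the brightest probe. COL5A1, the other main type V chain, reversed between replicates for WT over CON (0.76 and -0.71) and for KD1 over WT (-1.84 and 0.22). Over the fibrillar genes measured, the median log2 ratio was 0.34 between KD1 and CON (8 genes) and -0.81 between KD1 and WT (9 genes). By replicate these medians were 0.06 and 0.36, and -0.91 and 0.08, so that the second changed sign. The median was 0.63 between WT and CON (1.00 and 0.30 by replicate), where all 9 means were above 0, as were 46.8% of all probes.

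The 2 basement membrane genes that share a start region, COL4A1 and COL4A2, had like ratios. They encode the chains of the most widespread type IV collagen. The log2 level of COL4A2 was 14.47 and 15.08 in CON, 15.10 and 15.32 in KD1, and 16.53 and 16.19 in WT. That of COL4A1 was 11.40 and 11.70 in CON, 11.79 and 12.18 in KD1, and 13.08 and 12.77 in WT. In both genes WT lay above every other culture and both KD1 cultures lay above both CON cultures, by a small margin in COL4A2. Between WT and CON, COL4A2 had ratios of 2.10 and 1.06 (1.58 ± 0.73) and was 2.99-fold higher in WT (adjusted p = 0.0455, and 0.0917 in the extract-level fit). This call was lost without any 1 of the 6 cultures, with log2 ratios from 1.28 to 1.89 and adjusted p from 0.0720 to 0.311. COL4A1 had ratios of 1.69 and 1.03 (1.36 ± 0.47), 2.56-fold, with an adjusted p of 0.0534, which misses the threshold. In KD1 vs WT the ratios were -1.49 and -0.91 for COL4A2 (-1.20 ± 0.41, adjusted p = 0.0970) and -1.31 and -0.55 for COL4A1 (-0.93 ± 0.54, adjusted p = 0.133). In KD1 vs CON they were 0.40 and 0.42, with adjusted p of 0.498 and 0.440. All 4 arrays of WT vs CON were above 0 and all 4 of KD1 vs WT below 0 in both genes. The helix probe of COL4A1 gave means of 0.44 for KD1 against CON, -0.73 for KD1 against WT and 1.02 for WT against CON, beside 0.42, -0.93 and 1.36 from the brightest probe.

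The other 2 type IV pairs, whose chains serve the basement membranes of kidney, lung and smooth muscle, were at or near background. COL4A3 and COL4A4 were well above background in none of the 24 readings. COL4A6 was so in 1 reading of KD1 and 1 of WT. COL4A5 was so in 6 of 8 readings of KD1, 7 of CON and 6 of WT, with levels of 5.10 and 4.85 in CON, 4.96 and 4.81 in KD1, and 4.74 and 5.04 in WT. These overlapped, and its ratio in WT vs CON was -0.23 ± 0.28 (adjusted p = 0.639).

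**Figure D2:**
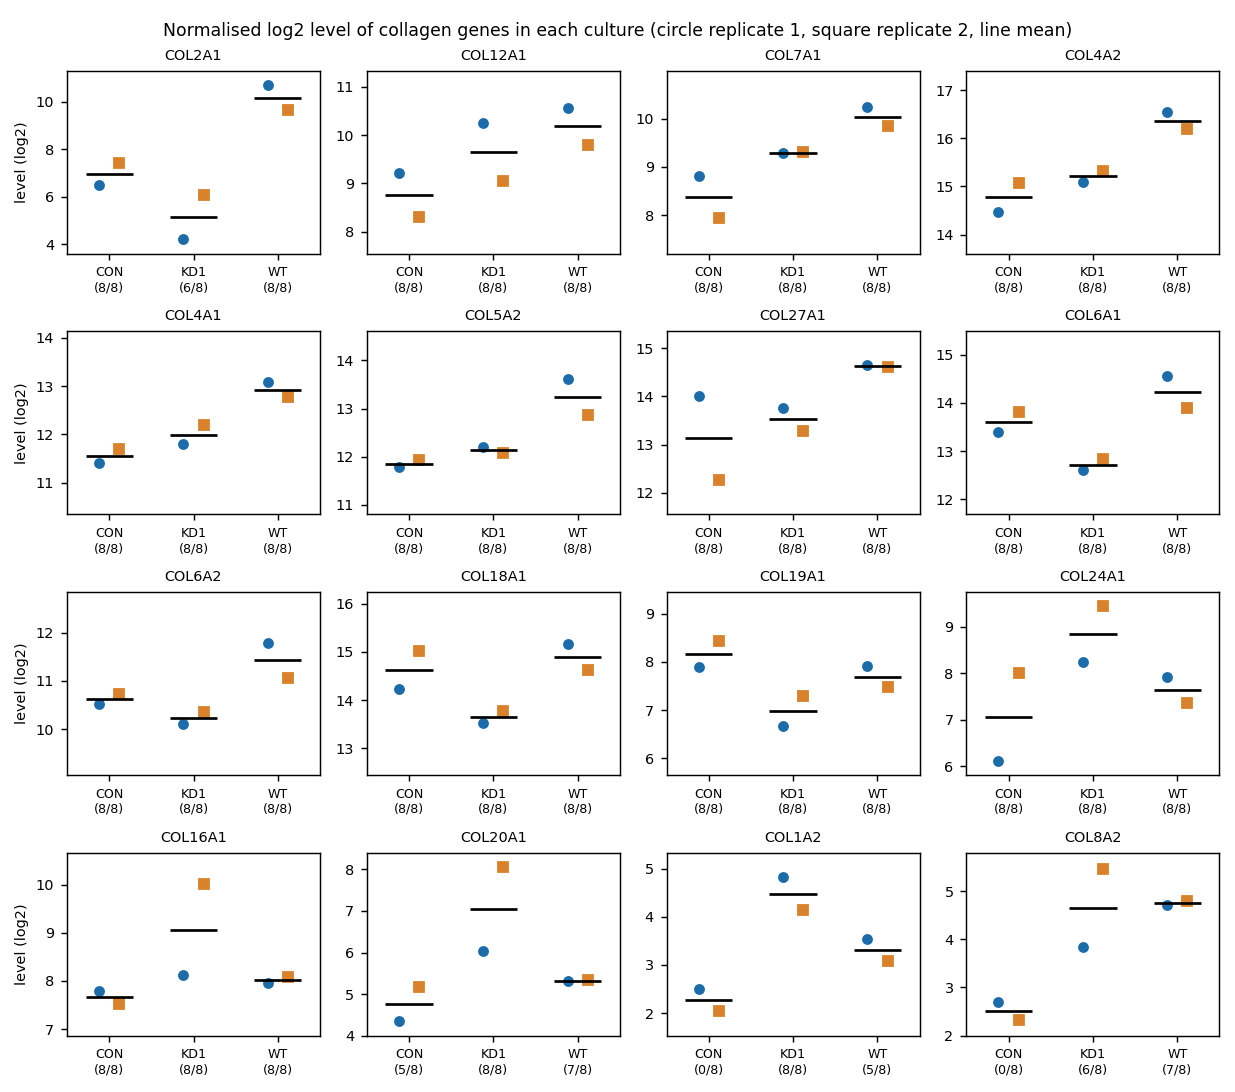
Normalised log2 level of 16 collagen genes in CON, KD1 and WT (circle replicate 1, square replicate 2, line mean), with the number of readings of 8 that were well above background in brackets. COL2A1, COL4A1, COL4A2, COL5A2, COL6A1, COL6A2, COL7A1 and COL27A1 have both WT cultures above all others. In COL6A1 the margin is small, with 13.89 in WT replicate 2 and 13.80 in CON replicate 2. COL24A1, COL16A1, COL20A1 and COL1A2 have both KD1 cultures above all others. In COL16A1 the margin is small, with 8.13 in KD1 replicate 1 and 8.09 in WT replicate 2. The genes were chosen mostly for large changes, and the share of all probes with such separation was not counted. Each panel has its own axis, so levels are not compared between genes.

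Type VI chains form beaded filaments around muscle fibers, and of the 5 genes COL6A1 and COL6A2 had their lowest levels in KD1, though neither passed the test. COL6A1 had log2 levels of 13.39 and 13.80 in CON, 12.61 and 12.83 in KD1, and 14.57 and 13.89 in WT. No 2 cultures overlapped, but replicate 2 of WT and of CON lay close together. The ratio in WT vs CON was 1.19 and -0.03 (adjusted p = 0.375). The ratio in KD1 vs WT was -1.91 and -1.14 (-1.53 ± 0.54), 2.88-fold lower in KD1 with an adjusted p of 0.0671, and in KD1 vs CON it was -0.86 and -1.04 (-0.95 ± 0.13, adjusted p = 0.162). COL6A2 had levels of 10.53 and 10.74 in CON, 10.10 and 10.36 in KD1, and 11.79 and 11.06 in WT. Again no 2 cultures overlapped, and the ratio in KD1 vs WT was -1.62 and -0.79 (-1.21 ± 0.59, adjusted p = 0.0963). COL6A3, the largest type VI chain, differed little, with levels between 6.14 and 6.48 in all 6 cultures. COL18A1, a multiplexin whose end fragment is endostatin, had levels of 14.22 and 15.02 in CON, 13.53 and 13.77 in KD1, and 15.16 and 14.62 in WT. Its KD1 cultures lay below all others, while CON and WT overlapped. The ratio of KD1 was -0.75 and -1.30 against CON (-1.03 ± 0.39, adjusted p = 0.164) and -1.60 and -0.89 against WT (-1.25 ± 0.50, adjusted p = 0.123).

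COL7A1 and COL12A1 were lowest in CON. COL7A1, which forms the anchoring fibrils of epithelial basement membranes, had levels of 8.82 and 7.95 in CON, 9.28 and 9.32 in KD1, and 10.25 and 9.84 in WT. The 3 cultures did not overlap. The ratio in WT vs CON was 1.47 and 1.73 (1.60 ± 0.19), 3.04-fold higher in WT (adjusted p = 0.0361, and 0.0753 in the extract-level fit). The call was lost without any 1 of the 6 cultures, with log2 ratios from 1.23 to 2.10 and adjusted p from 0.0939 to 0.363. The part of epithelial transcripts in the COL7A1 values was not tested. In KD1 vs CON the ratios were 0.46 and 1.43 (adjusted p = 0.114). COL12A1, which coats fibrils of tendon and muscle, had levels of 9.22 and 8.31 in CON, 10.26 and 9.05 in KD1, and 10.57 and 9.80 in WT. These levels overlapped between cultures, while within each replicate CON was lowest and WT highest. The ratio in WT vs CON was 1.36 and 1.49 (1.43 ± 0.09), 2.69-fold higher in WT (adjusted p = 0.0310, and 0.0663 in the extract-level fit). The call was lost without any 1 of the 6 cultures, with log2 ratios from 0.97 to 1.88 and adjusted p from 0.174 to 0.735. In KD1 vs CON the ratios were 1.05 and 0.63 (adjusted p = 0.103). A second probe of COL12A1 gave 0.00 in KD1 vs WT, where the brightest gave -0.52 (adjusted p = 0.276).

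Of the fibril-associated chains, COL16A1 and COL20A1 were highest in KD1 and COL19A1 lowest. COL16A1 had levels of 7.79 and 7.52 in CON, 8.13 and 10.00 in KD1, and 7.96 and 8.09 in WT. KD1 replicate 2 alone was far above the rest. In KD1 vs WT the ratio was 0.06 and 1.82 (adjusted p = 0.351). The part of endothelial transcripts in the values of COL16A1 and COL20A1 was not tested. The ratio in KD1 vs CON was 0.33 and 2.37 (1.35 ± 1.44, adjusted p = 0.193), and 0.77 after normexp and loess. Without KD1 replicate 1 it was 2.35 with an adjusted p of 0.0108, a fit in which 1 KD1 culture is left. COL20A1 had levels of 4.35 and 5.17 in CON, 6.03 and 8.05 in KD1, and 5.31 and 5.34 in WT, and was well above background in 8, 5 and 7 of 8 readings of KD1, CON and WT. The ratio in KD1 vs WT was 0.69 and 2.25 (1.47 ± 1.1, adjusted p = 0.119), which came to 2.73 without KD1 replicate 1 (adjusted p = 0.0278) and to 0.56 after normexp and loess. KD1 vs CON was not tested for this gene. COL19A1, a minor chain known from muscle and nerve, had levels of 7.89 and 8.42 in CON, 6.68 and 7.29 in KD1, and 7.92 and 7.47 in WT. Both KD1 cultures lay below the others. The ratio in KD1 vs CON was -1.22 and -1.11 (-1.17 ± 0.08), 2.24-fold lower with an adjusted p of 0.0898 (-0.51 after normexp and loess). In KD1 vs WT the ratio was -1.20 and -0.11 (adjusted p = 0.290), so replicate 2 differed little from WT. COL8A2, a network chain of the corneal endothelium, was well above background in 6 readings of KD1, 7 of WT and 0 of CON. Its levels were 2.70 and 2.33 in CON, 3.84 and 5.47 in KD1, and 4.70 and 4.79 in WT. KD1 was at least 2.37-fold and WT at least 2.53-fold above the background limit of CON.

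Several measured probes of a gene mostly gave like ratios. At least 2 measured probes were had by 9 collagen genes between KD1 and CON, 10 between KD1 and WT and 11 between WT and CON. In that order, the median range between probes of a gene was 0.18, 0.30 and 0.27 on the log2 scale, and the widest was 0.37, 0.72 and 0.67. The sign differed in 1 gene each time, COL15A1, COL12A1 and COL5A1.

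The study selected genes by a mean of at least 2-fold in both KD1 comparisons with the same direction on every array. Applied to these data, with the limit of the negative controls passed on every array, this held for 239 of 15727 genes (1.52%) and for 3 of 20 collagen genes, COL2A1 and COL18A1 lower and COL24A1 higher in KD1. With that signal asked of a single array it held for 417 of 25568 genes (1.63%). Among collagens it then held for 5 of 35, adding COL1A2 and COL20A1, both higher in KD1. Of these collagens, the study's own list of genes lower in KD1 holds COL2A1 but not COL18A1. A second COL18A1 probe gave mean log2 ratios of -0.72 against CON and -0.91 against WT, short of 2-fold.

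Neighbouring genes on the chromosome moved with some of the collagens. The median log2 ratio of the 51 measured genes around COL4A1 and COL4A2 on chromosome 13 was 0.91 for WT against CON, 0.70 for KD1 against CON and -0.15 for KD1 against WT. Over all measured collagen genes, such medians ranged from -0.17 to 0.91, from -0.44 to 0.70 and from -0.32 to 0.14 in that order, so the type IV pair had the highest surroundings in both comparisons with CON. Less its neighbours, COL4A2 was 0.67 and COL4A1 0.45 in WT vs CON, while in KD1 vs CON they were -0.29 and -0.28. Around COL6A1 and COL18A1 on distal chromosome 21 the median of KD1 was -0.35 against CON and -0.32 against WT, and around COL6A2 it was -0.44 and -0.32. COL6A1 at -0.95 and -1.53 and COL18A1 at -1.03 and -1.25 lay further below 0 than these. COL6A2 lay further below 0 against WT (-1.21) but not against CON (-0.33). Around COL2A1 the medians were 0.03 between KD1 and CON, -0.17 between KD1 and WT and 0.19 between WT and CON. In the same order they were -0.13, -0.11 and -0.10 around COL12A1, and -0.10, -0.01 and -0.08 around COL7A1. The part of the surrounding genes in the collagen values was not tested.

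**Figure D3:**
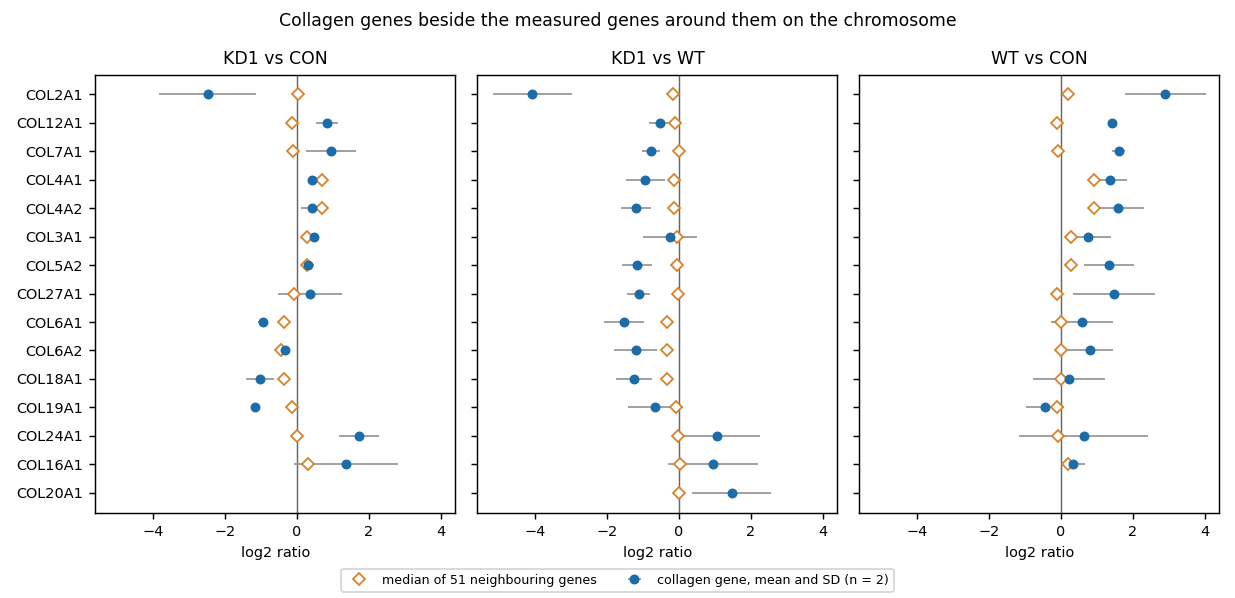
Mean log2 ratio of collagen genes (filled circles, bars SD, n = 2) beside the median of 51 measured neighbouring genes (open diamonds) in each comparison. For COL4A1 and COL4A2 the neighbours lie at 0.70 in KD1 vs CON and 0.91 in WT vs CON, while the neighbours of COL2A1, COL7A1 and COL12A1 lie between -0.17 and 0.19.

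The proteins that make and hold collagen were read from lists of general knowledge. Of 16 genes for modification and folding, 15 were measured in each comparison. PLOD2, a lysyl hydroxylase that sets the type of cross-link, was higher in KD1 than in CON (log2 ratios 1.57 and 1.56, adjusted p = 0.0184, and 0.0428 in the extract-level fit). It was also higher in WT than in CON (2.56 and 2.19, adjusted p = 0.00442 and 0.0177). LEPREL1, a prolyl 3-hydroxylase, was lower in KD1 than in WT (-1.77 and -1.60, adjusted p = 0.0245 and 0.0576). These were the only calls in this list, 1 gene in each comparison, and its median log2 ratio was 0.02 between KD1 and CON, -0.58 between KD1 and WT and 0.53 between WT and CON. By replicate the comparisons with WT gave -0.73 and -0.39, and 0.84 and 0.21. The medians of the lists below are given in the same order. Of 14 genes for propeptide cleavage and cross-linking, 10, 11 and 11 were measured. LOX, the founding lysyl oxidase, was higher in KD1 than in CON (1.72 and 1.62, adjusted p = 0.0337 and 0.0718) and in WT than in CON (1.51 and 2.55, adjusted p = 0.0223 and 0.0663). LOXL2, which cross-links type IV collagen, was lower in KD1 than in WT (-1.50 and -1.91, adjusted p = 0.0152 and 0.0360). The medians of this list were -0.27, -0.32 (replicates -0.80 and -0.10) and 0.48 (0.72 and 0.37).

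Of 10 collagen receptor genes, 5, 6 and 9 were measured. ITGA2, the integrin subunit for collagen on platelets and epithelia, was well above background in 8 of 8 WT readings and in none of KD1 or CON, with mean log2 levels of 6.46 in WT and 2.44 in CON. Against the background limit of CON, WT was higher by a factor of at least 8.83. It passed the signal limit through WT alone, and the adjusted p of the fits (0.00142 and 0.0125) rests on values not well above background in CON. No other receptor passed in any comparison, and the medians were 0.27, -0.73 (replicates -0.88 and -0.38) and 0.29 (0.46 and 0.13). Of 21 matrix partners, 13, 16 and 15 were measured. FBN2, a microfibril protein of developing tissue, was lower in KD1 than in CON (-3.23 and -3.54, adjusted p = 0.00124 and 0.00861) and than in WT (-5.18 and -4.73, adjusted p = 0.000363 and 0.00313), and higher in WT than in CON (2.46 and 1.47, adjusted p = 0.0189 and 0.0658). NID2, which bridges type IV collagen and laminin, was well above background in 1 of 8 KD1 readings and 7 of 8 WT readings. It was lower in KD1 than in WT (adjusted p = 0.0425 and 0.0756), but the size of the difference is not given because most KD1 readings were not well above background. LAMA3, a laminin chain of epithelial basement membranes, was higher in WT than in CON (1.53 and 1.79, adjusted p = 0.0207 and 0.0602), where CON was well above background in 4 of 8 readings. The medians of the partners were 0.08, -0.34 (replicates -1.01 and -0.06) and 0.62 (1.15 and 0.09).

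Of 13 regulators of collagen transcription, 9, 10 and 10 were measured. SMAD3, which carries TGF-beta signals, was lower in KD1 than in CON (-1.24 and -1.23, adjusted p = 0.0269 and 0.0497), and no other regulator passed in any comparison. SOX9, the cartilage factor known to activate COL2A1, is given for that role, chosen after its values were seen. Its log2 ratio was -0.29 and -2.15 between KD1 and CON, -0.77 and -2.40 between KD1 and WT, and 0.55 and 0.31 between WT and CON, with adjusted p of 0.200, 0.137 and 0.669. The part of SOX9 in the COL2A1 values was not tested.

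**Figure D4:**
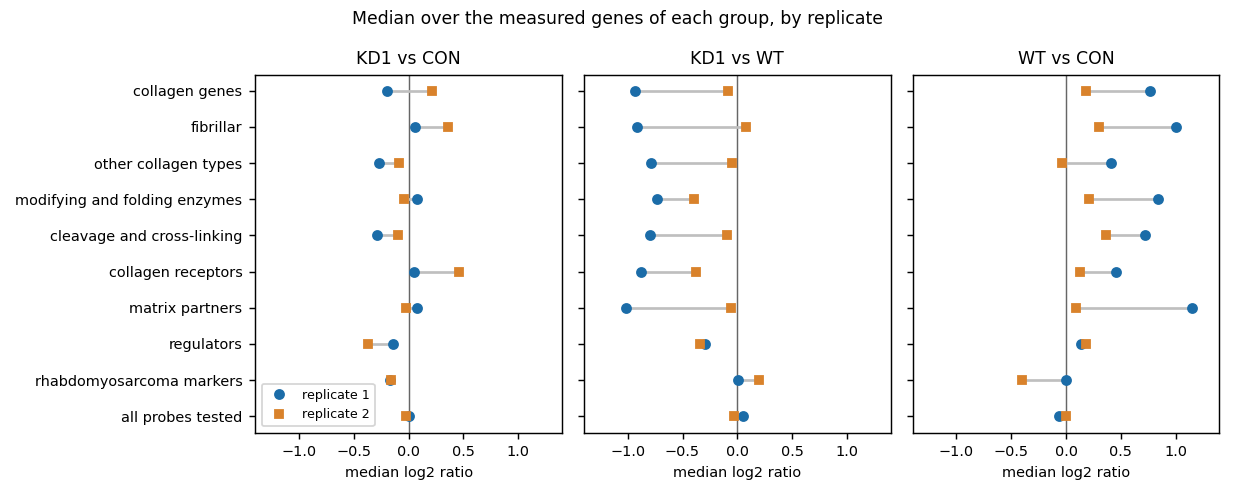
Median log2 ratio over the measured genes of each list in the 3 comparisons, with circles for replicate 1 and squares for replicate 2. In WT vs CON the collagen median is 0.76 in replicate 1 and 0.18 in replicate 2, and that of all probes tested stays within 0.07 of 0.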

How the data were processed

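The 12 arrays were 2-colour Agilent 4x44K slides. The authors scanned them and used Agilent Feature Extraction 10.5.1.1 to deposit linear intensity values per spot, background-subtracted and lowess-normalized within each array, with a surrogate for spots not above background. A log10 ratio of the channels per spot and, in a series table, a log2 ratio per probe were also deposited, and the latter served as an alternative. Log2 ratios were turned to the named comparison and averaged over spots, then over each dye-swap pair. Spots flagged as outliers (95 to 188 per array) and controls were left out, and 0 spots were saturated. The number of arrays limits the precision.

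Tests used limma 3.58.1 in R 4.3.3 on 6 replicate values, 1 coefficient per comparison and 2 residual degrees of freedom, since 3.56% of the variance of replicate values lay outside the 3 extracts. P-values were adjusted by Benjamini-Hochberg over all probes that passed the negative control limit (1.81 to 40.6 in Cy3 and 2.53 to 40.6 in Cy5). Both fits were run on simulated KD1 vs CON data with 21925 probes, 200 of them changed by 2 on the log2 scale. In 20 simulations this test recovered 98.35% with a mean of 32.8 false calls, a larger share than the threshold of 0.05 allows. The extract-level fit recovered 93.975% with a mean of 10.35 false calls, near the share that this threshold allows. It is therefore printed beside each call. Levels came from separate channels after between-array quantile normalization and can differ slightly from the ratios. How often the levels of cultures fail to overlap over all probes was not counted. Values in every culture are given for collagens with an adjusted p under 0.05 or a mean of at least 2-fold in some comparison, COL2A1 and the type IV pairs, with other probes where they differ in sign or by over 1. COL1A1, COL3A1, COL5A1, COL6A3, and COL1A2 and COL8A2 as lower bounds, were added after their values were seen. Listed genes of other roles are named where they passed. The members and lists were chosen with earlier results of these data known. RefSeq tables of GRCh38.p14 matched 62 of 68 collagen probes by accession and gave current names and start regions. Probe positions are those in the files. Python 3.11.15 with numpy 2.4.6, pandas 2.3.3, matplotlib 3.10.9 and data.table (version 1.17.8) were also used. Alternatives were other backgrounds, centrings, filters, designs and left-out cultures.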

Additional observations from a re-analysis of the deposited data

How the results depend on the processing

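The COL2A1 call in KD1 vs WT passed in 12 of 16 fits, and the 4 calls in WT vs CON in 4 to 6 of 16. All 357 values of the 21 named gene and comparison pairs in the 17 other settings kept the direction. Settings that held 1 replicate had no fit. The pairs were chosen for large changes on these same arrays, so the kept direction carries little weight. Collagen calls in KD1 vs CON, 0 as reported, came to 1 without a filter on dim probes (COL1A2) and to 6 when the 12 arrays were fitted singly with slide dye effects, a fit that counts dye-swap arrays as independent. In KD1 vs WT, 1 as reported, they came to 0 after normexp correction and loess and to 10 in the fit of 12 arrays. In WT vs CON, 4 as reported, they came to 1 with median centring (COL12A1), to 0 without a filter, after normexp and loess, in the extract-level fit and with separate channels without the replicate block, and to 8 in the fit of 12 arrays. The study's criteria held for 5 collagens with the limit asked of a single array. Over all probes, calls in KD1 vs CON, KD1 vs WT and WT vs CON fell from 396, 272 and 377 to 26, 1 and 2 with normexp and loess and to 111, 102 and 137 with median centring, and rose to 3944, 4204 and 4265 in the fit of 12 arrays. The cause of these changes was not tested.

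With separate channels, the replicate number as a block gave 0 collagen calls in each comparison. Deviations of same-numbered cultures correlated with 0.54 for KD1 and CON, -0.07 for KD1 and WT and -0.02 for WT and CON over 21870 probes. Same-numbered cultures thus varied together for KD1 and CON, while the numbers were not shown to pair either with WT. Leaving out 1 culture gave 0 to 1 calls in KD1 vs CON (COL16A1, without KD1 replicate 1), 0 to 3 in KD1 vs WT (COL2A1, COL16A1 and COL20A1, without KD1 replicate 1; 0 without either WT replicate) and 0 to 1 in WT vs CON. A lone culture is then assumed to vary like the others. With 1 replicate, the collagen median was -0.20 to 0.21 in KD1 vs CON and 0.18 to 0.76 in WT vs CON, values with no test. Dim genes are limited by signal over background, as COL2A1 in KD1.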
